A study of Homo sapiens with 6 samples.

Results

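Open chromatin was measured by ATAC-seq, in which the Tn5 transposase inserts sequencing adapters into accessible DNA, in RH30 cells, a rhabdomyosarcoma line of the fusion-positive, alveolar type that carries a muscle-like program. The labels and the ATAC-seq methods of the study name the line RH30. A results passage and a figure legend of the study name RH30-SR for this assay, a derivative with the IκBα super-repressor that blocks NF-κB. Which of them was used is therefore uncertain. All cells were grown in RPMI with fetal bovine serum and received Cas9, and whether edited cells were kept as a pool or as clones is not stated in the sources used here. The 3 vector libraries came from cells with scramble guides that target no gene and the 3 MyoDΔ libraries from cells with guides against MyoD, the myogenic transcription factor, and the deposited data are 1 list of peaks per library (hg38). Labels call the libraries of a group biological replicates without saying whether they came from separate cultures or clones, so the spread between them may be technical. Overlapping peaks were merged into 105441 regions, of which 4813 (4.56%) were gained, meaning called in 3 of 3 MyoDΔ and 0 of 3 vector libraries. The 910 regions described here, 18.9% of the gained regions (95% Wilson interval 17.8% to 20.04%, counting error only), were chosen as those that hold the TEAD core, CATTCC on either strand, within 100 bp of the summit and lack the AP-1 site, TGACTCA or TGAGTCA, in the same window. Since both the calls and the sites selected these regions, that they are open in MyoDΔ libraries and hold a TEAD core is not a result.

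TEAD factors are DNA-binding proteins of the Hippo pathway that recognize the M-CAT element, first known from muscle gene promoters, and have little activity alone. They become activators when the co-factors YAP or TAZ enter the nucleus, which the LATS kinases prevent, and they often share enhancers with AP-1, the Fos and Jun dimer. In muscle they act both in proliferating precursors and at contractile genes. A match of letters does not show which protein was bound.

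The sequences below are the summit with 100 bases on either side for 4 of the 6 members with the highest mean percentile in the MyoDΔ libraries, leaving out ANXA8L1 and NOTCH2NLC because these genes have near-identical copies. Regions are named by the gene with the nearest 5′ end, and every TEAD core is in capitals (plus strand of hg38). The first 3 hold 1 core each and the AVPR1A region holds 3.
SOX4 (chr6:21348602-21348802, plus strand): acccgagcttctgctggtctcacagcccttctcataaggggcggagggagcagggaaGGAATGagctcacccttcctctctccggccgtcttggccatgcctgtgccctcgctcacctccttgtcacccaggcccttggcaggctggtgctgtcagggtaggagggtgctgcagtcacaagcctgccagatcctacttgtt
JARID2 (chr6:15073444-15073644, plus strand): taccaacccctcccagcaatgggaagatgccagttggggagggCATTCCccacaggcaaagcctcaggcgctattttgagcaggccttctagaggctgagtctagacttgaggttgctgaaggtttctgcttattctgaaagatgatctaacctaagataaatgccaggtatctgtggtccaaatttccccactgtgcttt
HAPLN1 (chr5:83844624-83844824, plus strand): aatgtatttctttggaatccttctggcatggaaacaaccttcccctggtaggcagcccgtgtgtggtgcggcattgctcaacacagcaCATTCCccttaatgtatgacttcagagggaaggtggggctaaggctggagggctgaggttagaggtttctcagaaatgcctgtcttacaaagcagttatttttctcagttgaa
AVPR1A (chr12:63045341-63045541, plus strand): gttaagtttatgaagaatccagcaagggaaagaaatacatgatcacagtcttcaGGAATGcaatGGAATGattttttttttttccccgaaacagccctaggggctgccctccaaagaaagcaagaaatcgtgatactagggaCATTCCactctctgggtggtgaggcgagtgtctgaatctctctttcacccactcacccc

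Several cores in 1 window were uncommon, and the next sequences show 1 of the 2 members with 4 cores, in an intron of LAMC1, and 1 of the 2 members in which cores repeat in the same direction 3 bases apart, the arrangement of a tandem M-CAT, nearest to CRYBA4. Both are shown for their arrangement and not for their rank.
LAMC1 (chr1:183094107-183094307, plus strand): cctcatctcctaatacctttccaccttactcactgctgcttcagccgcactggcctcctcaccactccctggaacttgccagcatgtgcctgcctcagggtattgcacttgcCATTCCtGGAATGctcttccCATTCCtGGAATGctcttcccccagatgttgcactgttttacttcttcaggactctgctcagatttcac
CRYBA4 (chr22:26681426-26681626, plus strand): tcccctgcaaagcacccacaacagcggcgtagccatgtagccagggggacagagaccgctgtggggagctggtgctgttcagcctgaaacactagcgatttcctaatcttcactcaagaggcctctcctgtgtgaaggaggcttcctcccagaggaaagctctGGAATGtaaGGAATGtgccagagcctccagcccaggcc

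For members nearest to genes of the Hippo pathway, the mesenchymal state, the matrix and growth factor signalling, 46 bases with the core in the middle are given on the strand that reads CATTCC. They are shown because the regions named by function turn on them.
LATS2 (chr13:21069749-21069794, plus strand): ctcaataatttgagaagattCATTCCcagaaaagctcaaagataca
WWTR1 (chr3:149736339-149736384, plus strand): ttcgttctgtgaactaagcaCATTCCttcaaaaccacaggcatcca
WWC1 (chr5:168295664-168295709, plus strand): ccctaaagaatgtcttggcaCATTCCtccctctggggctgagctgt
F3 (chr1:94661161-94661206, minus strand): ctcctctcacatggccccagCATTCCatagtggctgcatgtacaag
TWIST1 (chr7:18798792-18798837, minus strand): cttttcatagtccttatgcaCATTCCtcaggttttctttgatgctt
RUNX1 (chr21:35779840-35779885, plus strand): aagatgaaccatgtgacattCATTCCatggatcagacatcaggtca
ZEB2 (chr2:144944298-144944343, minus strand): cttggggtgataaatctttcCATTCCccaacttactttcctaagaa
NRP1 (chr10:33525242-33525287, plus strand): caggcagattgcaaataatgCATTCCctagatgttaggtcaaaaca
ITGB1 (chr10:32893584-32893629, minus strand): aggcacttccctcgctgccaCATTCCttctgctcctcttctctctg
ITGA5 (chr12:54428628-54428673, minus strand): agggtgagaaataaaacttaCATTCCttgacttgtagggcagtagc
CDH2 (chr18:28584929-28584974, plus strand): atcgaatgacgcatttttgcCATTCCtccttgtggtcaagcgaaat
TGFBR2 (chr3:30578590-30578635, plus strand): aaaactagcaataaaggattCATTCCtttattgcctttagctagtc
IGFBP7 (chr4:57102327-57102372, plus strand): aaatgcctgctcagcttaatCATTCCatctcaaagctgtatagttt
IGFBP7 (chr4:57132371-57132416, minus strand): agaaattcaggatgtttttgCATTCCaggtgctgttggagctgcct

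The lists give 63068 to 74041 peaks per vector library and 73673 to 80530 per MyoDΔ library, but no read totals, and the labels state only a minimum that all libraries share. A whole-number pileup, the count covering the summit, was recovered for 100% of peaks from the deposited fold enrichment and −log10 p. Its unit is called fragments here, although the settings of the peak caller that fix what is counted are not given. The smallest local background, which follows depth, was 2.22 to 3.41 fragments in vector and 2.27 to 2.35 in MyoDΔ libraries. The region at the 5′ end of MYOD1 was called in all 6 libraries and ranked with percentiles of 69.7 to 73.9 in vector and 66.0 to 73.0 in MyoDΔ libraries, while its centred height, explained with the shared regions, fell by 0.49 on the log2 scale (limma adjusted p = 0.0021). A peak there does not read the edited sequence and so does not check the labels. Of 14 muscle markers, 11 had a called 5′ end in each vector library and 9 to 10 in each MyoDΔ library, with MYF6, MYH3 and MYH8 uncalled throughout and MEF2C called only in the vector libraries.

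Most members were modest peaks. Their median pileup was 18, 22 and 21 fragments in MyoDΔ replicates 1, 2 and 3, where the weakest member had 8, 9 and 8 and the smallest called peak of any kind had 8. Ranked by fold enrichment among all peaks of a library, the median member lay at percentile 27.1, 36.6 and 32.4, against 66.0, 68.0 and 68.9 for regions called in all 6 libraries. This gap is not a finding about members, since both sets were chosen by their calls. Being uncalled in every vector library favours peaks near the calling threshold, and how much of the gap follows from that was not tested. The other gained regions, compared in the next paragraph, also ranked low in the MyoDΔ libraries. Of the 910, 590 (64.8%) lay below the middle of the ranking in all 3 libraries, 74 (8.13%) lay above it in all 3, and 4 exceeded the 75th percentile in all 3. The rank of a member moved by a median of 17.1 percentile points between its highest and lowest MyoDΔ library, and 449 of the 910 were highest in replicate 2. In 619 members (68.0%) the −log10 q was at least 5 in every MyoDΔ library. In bulk libraries, a region open in few cells and one weakly open in all cells cannot be told apart.

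The question of whether a TEAD core alone marked stronger gained regions was addressed by comparing members with the 2584 gained regions that hold neither site. The median percentile of members was higher by 2.04, 6.21 and 3.03 points in MyoDΔ replicates 1, 2 and 3, a mean of 3.76 ± 2.18 points (SD, n = 3; two-sided exact sign-flip test over the libraries, p = 0.25, the smallest p that 3 libraries allow). All 3 libraries showed the same direction, but members with −log10 q of at least 5 differed by only 0.94 points (p = 0.75 from the same exact test). Against the 1319 gained regions with an AP-1 site, members differed by −1.75, −3.57 and 1.45 points in replicates 1, 2 and 3, with no common direction (two-sided exact sign-flip test, n = 3, p = 0.5).

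**Figure D1:**
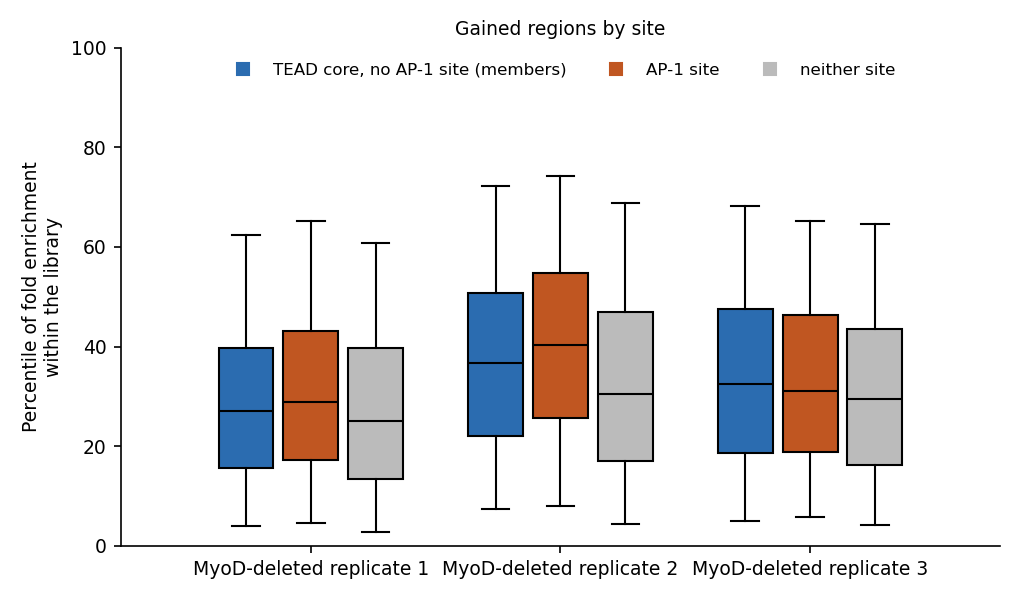
Percentile of fold enrichment within each MyoDΔ library (y axis, 0 to 100) for the 910 members, the 1319 gained regions with an AP-1 site and the 2584 with neither site. Boxes span the quartiles with the median as a line, and whiskers run from the 5th to the 95th percentile of each class. The 3 classes overlap broadly in every library, with member medians of 27.1, 36.6 and 32.4.

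The member with the highest mean rank lay between genes, 245 kb upstream of the 5′ end of SOX4, a transcription factor of the HMG-box family (chr6:21348287-21349074). Its pileup was 46, 56 and 46 fragments in MyoDΔ replicates 1, 2 and 3, and its percentile was 88.6 ± 2.06 (SD, n = 3). The next lay 173 kb upstream of JARID2, a partner of the polycomb repressive complex (chr6:15073087-15073903), with 45, 44 and 63 fragments. The third lay 124 kb upstream of HAPLN1, which links hyaluronan to proteoglycans in the matrix (chr5:83844184-83845030), with 54, 58 and 71 fragments and a core 9.5 bp from the summit. A region 106 kb downstream of the 5′ end of AVPR1A, a vasopressin receptor (chr12:63044919-63045724), had 3 cores and 38, 40 and 49 fragments.

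The remaining members of the 10 with the highest mean percentile varied between libraries to different degrees. The region in an intron of ANXA8L1, of the annexin family, had 36, 81 and 42 fragments, and the region in an intron of SCN8A, a sodium channel gene, had 26, 49 and 46, so that 1 library stood apart in each. Those nearest to HMCN1, a matrix protein, PPP2R1B, a scaffold subunit of protein phosphatase 2A, and DPYD, which degrades pyrimidines, averaged 38.3 ± 8.08, 40.7 ± 8.08 and 58.7 ± 15.3 fragments (SD, n = 3). ANXA8L1 and NOTCH2NLC (49, 41 and 51 fragments) belong to families of near-identical copies, and how reads with several matching positions were treated is not given in the sources used here, so the place of these 2 regions is uncertain.

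**Figure D2:**
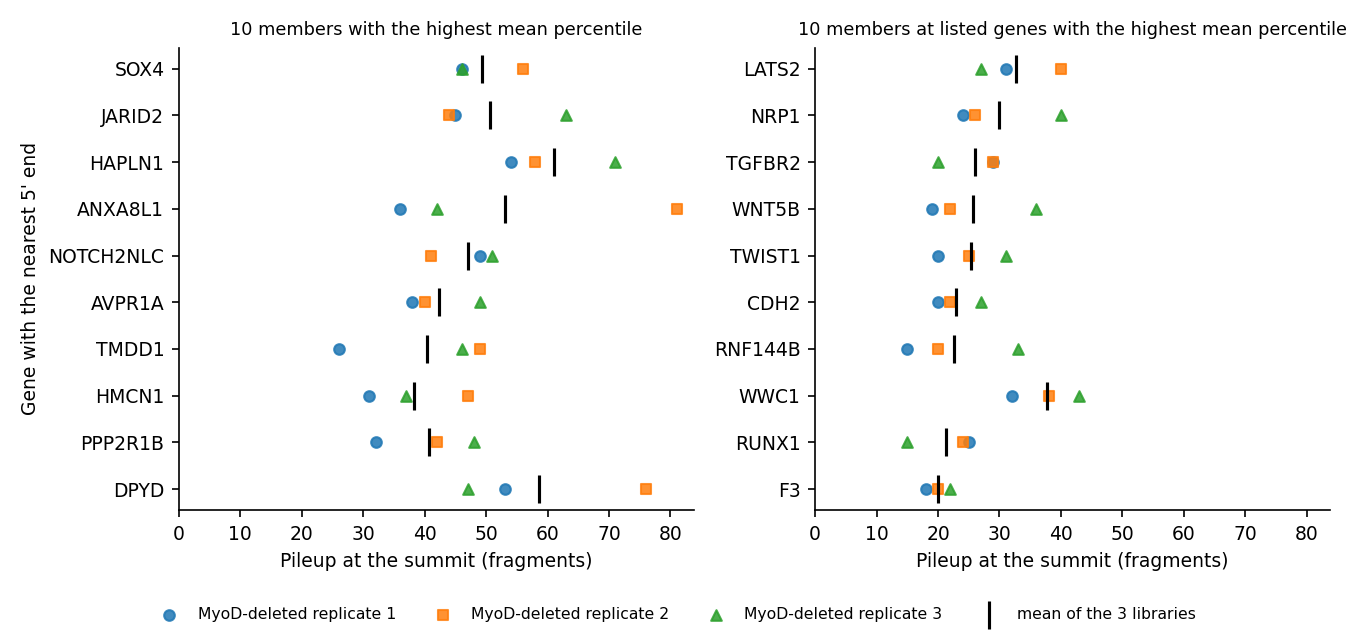
Pileup at the summit in fragments (x axis) in each of the 3 MyoDΔ libraries for the 10 members with the highest mean percentile (left) and the 10 highest among members nearest to a listed gene (right), named by the gene with the nearest 5′ end, with a bar at the mean. The left group had means of 38.3 to 61.0 fragments and the right group 20 to 37.7, and single libraries stood apart at ANXA8L1, DPYD and NRP1.

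Pileup and rank diverged where the local background was high. The member with the most fragments, in an intron of CREB3L1 (chr11:46290458-46291109), a membrane-bound transcription factor, had 171, 218 and 219 fragments but a percentile of 24.2 ± 6.74 (SD, n = 3), and the local background by which fold enrichment divides was 37.4, 45.5 and 39.8 fragments there. Members nearest to SREBF1, a regulator of lipid synthesis, and ALDH3B1, an aldehyde dehydrogenase, had 127 ± 16.5 and 126 ± 12.9 fragments and ranked at percentiles of 3.51 and 3.42. In 106 members (11.6%) the background exceeded 2 times the smallest of the library in all 3 MyoDΔ libraries. These 3 regions were singled out after their values were seen.

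Of 191 genes on 9 lists, 25 were the nearest gene to 1 or more of 32 members. Among 23 genes of the Hippo pathway and TEAD partners, 3 had a member (13.0%, against 4.19% of 19962 protein-coding genes), with 6 members in all. LATS2, a kinase that holds YAP and TAZ in the cytoplasm, had a member 8.20 kb upstream (chr13:21069582-21070162) with 31, 40 and 27 fragments and the highest rank of any list gene, 68.5 ± 8.59 percentiles (SD, n = 3). WWC1, the scaffold protein KIBRA that activates LATS, was nearest to 4 members. WWTR1, which encodes TAZ, had a member close to its 5′ end (chr3:149736107-149736934), 0.326 kb downstream, at percentile 28.8, 12.3 and 27.5, among the weaker ones. These lists differ in the number of open regions per gene, which was not taken into account.

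Of 25 YAP/TEAD target genes, 3 (12%, against 4.19% of protein-coding genes) had 1 member each. They were LATS2, F3, which encodes tissue factor and starts coagulation (119 kb upstream, 20 ± 2 fragments, SD, n = 3), and RBMS3, an RNA-binding protein. Of 15 mesenchymal transcription factors, 4 were nearest to 6 members (26.7% of the genes, against 4.19% of protein-coding genes), namely TWIST1 and ZEB2 with 2 each and RUNX1 and RUNX3 with 1 each. Nearest did not mean close. The ZEB2 members lay 423 and 587 kb upstream and the weaker TWIST1 member 244 kb downstream. The stronger TWIST1 member lay 319 kb downstream, in an intron of HDAC9 (chr7:18798114-18799314), with 20, 25 and 31 fragments, and the RUNX1 member lay in an intron of RUNX1 itself with 25, 24 and 15. The RUNX3 member, with 2 cores, lay in an untranslated exon with 14, 18 and 16 fragments. No member of the mesenchymal list exceeded the 75th percentile in any library.

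Of 29 matrix and adhesion genes, 5 (17.2%, against 4.19% of protein-coding genes) had 6 members. NRP1, a receptor for semaphorins and VEGF, had 1 with 24, 26 and 40 fragments, 189 kb upstream, in which replicate 3 stood above the others. ITGB1, the integrin beta-1 chain, had 2, and ITGA5, its fibronectin-binding partner, had 1 with 24, 31 and 28 fragments. CDH2, the N-cadherin gene, had 1 with 20, 22 and 27 fragments, 407 kb upstream. LAMC1, a laminin chain, had the 4-core member, which was weak at 19, 15 and 13 fragments. Of 21 growth factor signalling genes, 3 (14.3%, against 4.19% of protein-coding genes) had 1 member each. The member nearest to TGFBR2, a TGF-beta receptor, had 29, 29 and 20 fragments. The one nearest to WNT5B, a Wnt ligand, had 19, 22 and 36 and lay 40.8 kb upstream, in an intron of ERC1. The one nearest to HGF, the ligand of MET, had a percentile of 24.7.

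Of 21 actin cytoskeleton genes, CNN3, a calponin, and TPM1, a tropomyosin, had 1 member each (9.52% of the genes, against 4.19% of protein-coding genes). Of 30 myogenic regulators and muscle genes, CHRNA1, an acetylcholine receptor subunit, and MEF2A had 1 each (6.67% of the genes), at mean percentiles of 17.6 and 3.21. Of 14 AP-1 subunit genes none was nearest to a member. With a share of 4.19% over all protein-coding genes, 14 genes are too few to read this as an absence. Gained regions of other kinds nearest to these 14 genes numbered 8. Of 24 genes from the guide library of the study, 7 (29.2%, against 4.19% of protein-coding genes) had 8 members, at F3, ITGA5, NRP1, PLK2, RAPGEF2 with 2, RNF144B and SGK1. That library was chosen in the study for higher expression in MyoDΔ cells, so it is not independent evidence, and 1 further gene of it was not analysed here. The RNF144B core is followed by AGCCTGG, letters typical of an Alu repeat. Cores followed by these letters were found in 8 members (0.88%) and in 25 of 5401 shared distal regions with a TEAD core only (0.46%).

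The 910 members were nearest to 837 genes, of which 778 had 1 member and 11 had 3 or more. CMIP, IGFBP7 and WWC1 had 4 each, and those with 3 included CBR4, CUX1, EZR, FSTL1, IL6, PHTF2 and SERTAD4. The 4 WWC1 members ran from 1.55 kb upstream to 33.5 kb into the gene, and 2 of them held 2 cores. The highest-ranking, 4.12 kb inside, had 32, 38 and 43 fragments. The 3 members nearest to FSTL1, a secreted follistatin-like protein, differed widely, with 73, 75 and 90 fragments at the one 48.2 kb upstream and 14, 20 and 12 at the one 18.7 kb upstream. The highest-ranking of the 3 members upstream of EZR, the actin-membrane linker ezrin, had 31, 46 and 21 fragments, a wide spread. The 3 members nearest to IL6, the cytokine interleukin-6, lay in introns of STEAP1B, 135.9 to 148.1 kb upstream.

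IGFBP7, a secreted protein that binds insulin-like growth factors, was looked at as a whole locus after its values were seen. Of the 18 regions nearest to it, 6 were gained and 4 of these were members, at 8.12 kb inside the gene and 0.752, 21.96 and 26.1 kb upstream. The member inside the gene (chr4:57101832-57102577) had 26, 50 and 47 fragments and the one just upstream of the 5′ end (chr4:57110893-57111440) had 13, 15 and 11. Another 3 regions were called in all 6 libraries and could be tested. The one in the gene at 29.0 kb (chr4:57080900-57081965) also held a TEAD core without an AP-1 site, and its percentile was 31.0, 6.29 and 27.8 in vector and 84.8, 78.2 and 78.3 in MyoDΔ libraries, with no overlap (change 1.90 inverse-normal units, SE 0.254, limma adjusted p = 0.0043). The one 8.95 kb upstream, with neither site, rose from 48.4 ± 9.56 to 88.6 ± 1.14 percentiles (SD, n = 3; limma adjusted p = 0.0052). The third, 53.5 kb upstream, fell by 6.44 points by rank (limma adjusted p = 0.045) but changed by only −0.05 in centred log2 height (limma adjusted p = 0.83).

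**Figure D3:**
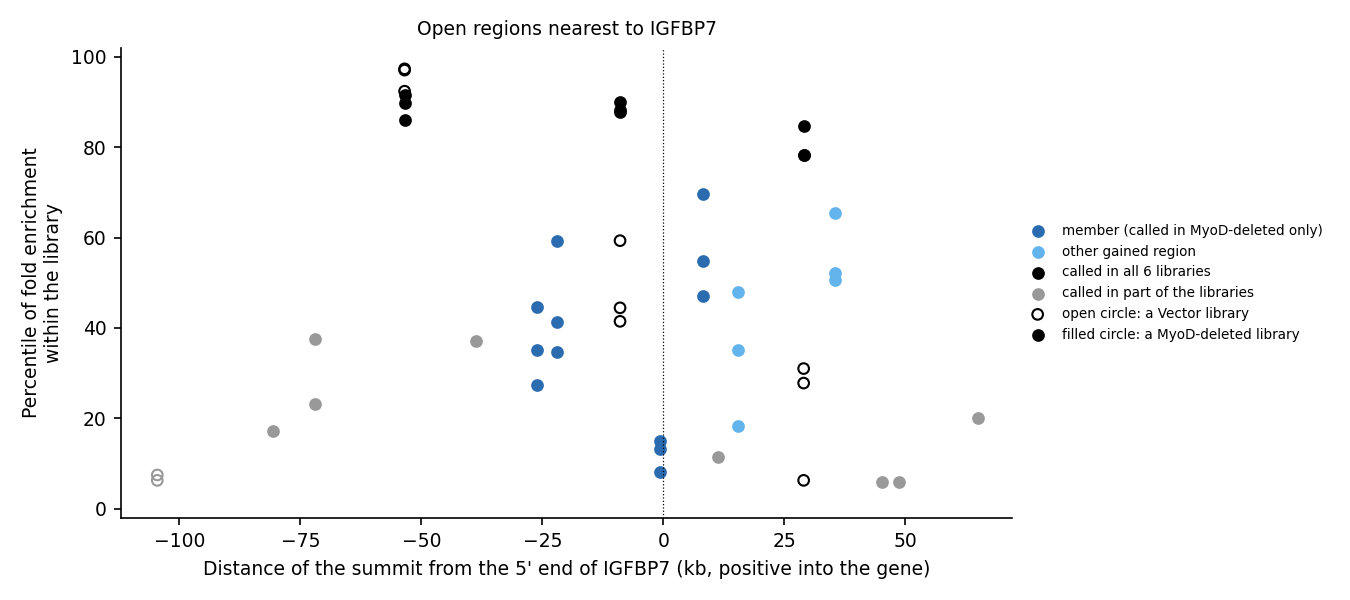
Regions nearest to IGFBP7 by the distance of the summit from its 5′ end in kb (x axis, positive into the gene) and percentile of fold enrichment within each library (y axis), with 1 circle per library that called the region, filled for MyoDΔ and open for vector libraries, and 1 distant upstream region left out. The 4 members have only filled circles by selection, and at the shared region 29.0 kb into the gene the 3 MyoDΔ libraries (78.2 to 84.8) lie above the 3 vector libraries (6.29 to 31.0).

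The TEAD core was more frequent in gained regions than in the others, which is a description of the pool from which members were drawn. Among regions without an AP-1 site, the window of 100 bp on either side of the summit contained the core in 26.04% of 3494 gained regions, 15.6% of 1690 lost regions (called in 3 of 3 vector and 0 of 3 MyoDΔ libraries), 15.4% of 39438 shared regions and 18.5% of 29206 shared regions over 2 kb from a 5′ end. The core read backwards without complementing it, CCTTAC, a comparison of the same base content, lay in 5.58%, 6.15%, 4.67% and 4.80% of the same sets. Another 272 gained regions held both sites and are not members. The share of regions with a TEAD core only also followed the calls, at 15.2% of regions called in 1 of 3 MyoDΔ and no vector library, 16.6% of those in 2 of 3 and 18.9% of those in 3 of 3.

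**Figure D4:**
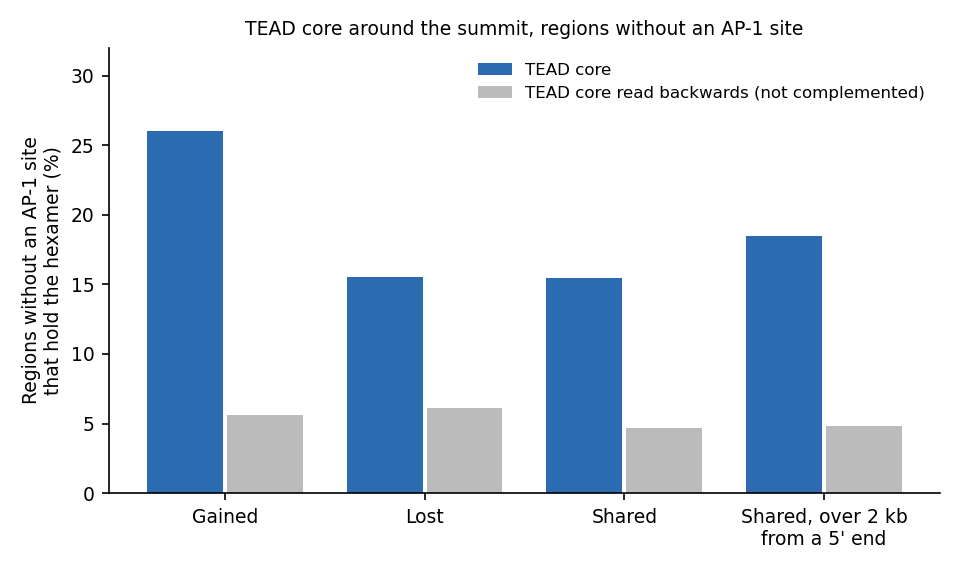
Share of regions without an AP-1 site that hold the TEAD core (blue) or the same 6 letters in reverse order (grey) within 100 bp of the summit, in percent from 0, for gained, lost and shared regions. The core stands at 26.04% in gained regions against 15.4%, 15.6% and 18.5% in the other sets, while the reversed letters stay between 4.67% and 6.15%.

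Within members, 782 held 1 core, 118 held 2, 8 held 3 and 2 held 4. The 14.1% with 2 or more compares with 13.1% of the 5401 shared distal regions with a TEAD core only. Direct repeats 3 bases apart occurred in 2 of the 128 members with several cores and 27 times in the 710 such shared regions. The nearest core lay a median of 42.5 bp from the summit (44.5 bp in the shared set and 46.5 bp in lost regions with a TEAD core only), and within 25 bp in 284 members (31.2%, against 29.4% and 26.6%). Cores read CATTCC on the plus strand in 48.4% of cases. The base after the core was T in 41.3% and A in 35.3% of 1041 cores, and G in 3.27%, compared with 39.2%, 32.9% and 4.59% in the shared distal set and 33.8%, 29.4% and 6.14% in lost regions with a TEAD core only. The form CATTCCT was found in 409 members (44.9%), against 42.6% of the shared distal set, and ACATTCC in 341 (37.5%, against 34.0%).

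E boxes were less frequent in members than in lost and shared regions. They were closer to, but slightly below, their share in the other gained regions. The E box CAGCTG, a site of MyoD, lay in 105 members (11.5%, 95% Wilson interval 9.62% to 13.8%, counting error only), in 11.8% of gained regions with an AP-1 site, 14.5% of gained regions with neither site, 31.8% of shared distal regions with a TEAD core only and 54.7% of lost regions. CAGGTG, on either strand, lay in 6.59%, 8.34%, 8.48%, 13.7% and 37.8% of these sets. The RUNX site AACCACA lay in 110 members (12.1%), against 6.67% of gained regions with an AP-1 site, 10.7% of those with neither and 11.1% of the shared distal set with a TEAD core only. The FOX site TGTTTAC lay in 38 (4.18%, interval 3.06% to 5.68%), against 3.34% and 3.72% of the other gained classes, both inside that interval, and 2.63% of that shared set. These intervals treat regions as independent and are not a test between classes. TGAATCA, an AP-1-like form outside the rule, lay in 75 (8.24%), against 5.69% of gained regions with an AP-1 site and 6.52% of the shared set. It lay in 8.75% of gained regions with neither site.

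The SOX site ACAATG lay in 10.9% of members and 10.8% of gained regions with neither site. Sites of the NFI family, TTGGCA, lay in 14.8% of members and 15.1% of those regions. Letters bound by the GATA family, which were searched for as AGATAA, lay in 9.01% and 9.71%. The MEF2 form TAAAAATA lay in 2.97% and 1.90%, the homeobox core TAATTA in 2.64% and 2.86%, and the CTCF core CCCTCT in 19.2% and 20.4%. ETS (CCGGAAGT) lay in 1 member, CRE (TGACGTCA) in 3, the NF-κB site in 2 and C/EBP (TTGCGCAA) in 0, which only says that these letters were not in the windows. All sites were searched on both strands. The E box CAGCTG and the homeobox, CRE and C/EBP sites read alike on both, and CATTCCT and ACATTCC overlap the TEAD core itself. Over all 105441 regions the shares were 25.1% for CAGCTG, 15.9% for CAGGTG, 8.93% for the RUNX, 10.4% for the SOX and 2.53% for the FOX site. Median GC content was 46.8% in members, 47.8% in gained regions with neither site and 50.7% in shared distal regions.

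Members lay far from gene starts. The nearest 5′ end was a median of 49.0 kb away, 24 members (2.64%) had one within 2 kb, and 481 (52.9%) lay in introns, 405 (44.5%) between genes, 16 in untranslated and 8 in coding exons of protein-coding genes. Of the 24, the highest-ranking was at the 5′ end of ZNF474, a zinc finger gene, with 54, 54 and 62 fragments. Those at the 5′ ends of SMAP2, an Arf GTPase-activating protein, and CAMK1G, a calmodulin-dependent kinase, which lay 0.046 and 0.027 kb upstream, had 15, 22 and 19 and 16, 22 and 16 fragments. Members were narrower than shared regions, with a median width of 608 bp against 1020 bp, as were gained regions with an AP-1 site (583 bp) and with neither site (579 bp). They were spread over all 23 chromosomes used, with 12.5% on chromosome 1 and 1.76% on chromosome 19, which holds 1.89% of all gained and 4.34% of shared regions. Only 76 (8.35%) had another member within 50 kb, 292 (32.1%) had another gained region and 772 (84.8%) had a shared region within that distance, with a median of 15.1 kb to the nearest one.

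The limits of the rule were not marked by a step in the values. At the edge of the window, 48 members had their nearest core over 90 bp from the summit and a median mean percentile of 30.6, and 66 gained regions just outside, with a core up to 110 bp away, had 33.1. The weakest calls inside were those nearest to LIMA1, an actin-binding protein, with 14, 23 and 8 fragments, STXBP6 with 8, 17 and 12, and SLC39A11 with 22, 14 and 11, which had the lowest −log10 q in their weakest library. A further 797 regions with a TEAD core only were called in 3 of 3 MyoDΔ and 1 of 3 vector libraries and 899 in 2 of 3 and 0 of 3. Leaving out 1 library loosens the rule, since fewer calls are asked for, so the number of members tends to rise whichever is left out. It was 1567 without vector replicate 1, 1378 without MyoDΔ replicate 1 and 979 without vector replicate 2.

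Whether TEAD cores marked changes beyond the gained regions was asked in the 6087 regions with a TEAD core and no AP-1 site that were called in all 6 libraries, which the selection did not use. By rank of fold enrichment (limma, adjusted p under 0.05 over 47847 shared regions), 330 of them ranked higher in MyoDΔ libraries (5.42%, against 4.12% of all shared regions) and 308 ranked lower (5.06%, against 4.67%), so both directions were nearly balanced and close to the background. By the height of the summit, with the median change of all regions set to 0, 912 were higher (14.98%, against 11.4%) and 881 lower (14.5%, against 12.8%). Without centring, where the median of all shared regions was 0.23 higher on the log2 scale in MyoDΔ libraries, 1717 were higher (background 24.7%) and 556 lower (background 8.03%). Without vector replicate 2, vector replicate 3, MyoDΔ replicate 1 or MyoDΔ replicate 2 the number ranked higher was 122, 160, 162 or 97 and the number ranked lower 121, 147, 159 or 117. Without MyoDΔ replicate 3 the numbers were 224 higher and 253 lower. Without vector replicate 1 they were 415 higher and 255 lower, so the near balance did not hold when that library was left out. For comparison, the 8409 shared regions with an AP-1 site split into 629 higher (7.48%) and 280 lower (3.33%) by rank. The 33351 with neither site split into 1014 higher (3.04%) and 1647 lower (4.94%).

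The balance differed with the E box, a division made after the data were seen. Among the 3681 distal shared regions with a TEAD core, no AP-1 site and no CAGCTG, 270 ranked higher (7.33%) and 132 lower (3.59%), and by centred height 730 were higher and 376 lower. Among the 1720 that also held CAGCTG, 46 ranked higher (2.67%) and 163 lower (9.48%), and by centred height 137 were higher and 470 lower. Distal shared regions with neither site and no CAGCTG gave 789 higher (4.91%) and 642 lower (3.998%) of 16059. With and without CAGCTG together, distal shared regions with neither site gave 936 higher (3.93%) and 1555 lower (6.53%) of 23805. The lean to lower with CAGCTG was therefore not particular to regions with a TEAD core. Over all 37231 distal shared regions, 5.01% ranked higher and 5.71% lower. The difference between these shares was not tested, since regions are not replicates.

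The 5 distal shared regions with a TEAD core only and the largest upward shift were named after their values were seen. That the groups did not overlap at these regions follows from this choice and is not a result. The one nearest to SLC2A8, a glucose transporter (chr9:127344279-127345038), had 32, 9 and 16 fragments in vector and 65, 87 and 66 in MyoDΔ replicates 1, 2 and 3 (change 2.21 inverse-normal units, SE 0.304, limma adjusted p = 0.0047). The one nearest to SLC23A2, a vitamin C transporter (chr20:4916787-4917700), had 22, 12 and 14 against 58, 59 and 59 (change 2.13, SE 0.209, limma adjusted p = 0.0024). Those nearest to COQ8A, MPDZ and AP1S3 had adjusted p values of 0.0034, 0.003 and 0.0058 from limma. All 5 also passed by centred height, which is a second measure of the same peaks. Vector replicate 1 was the highest of the vector libraries at each of the 5.

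**Figure D5:**
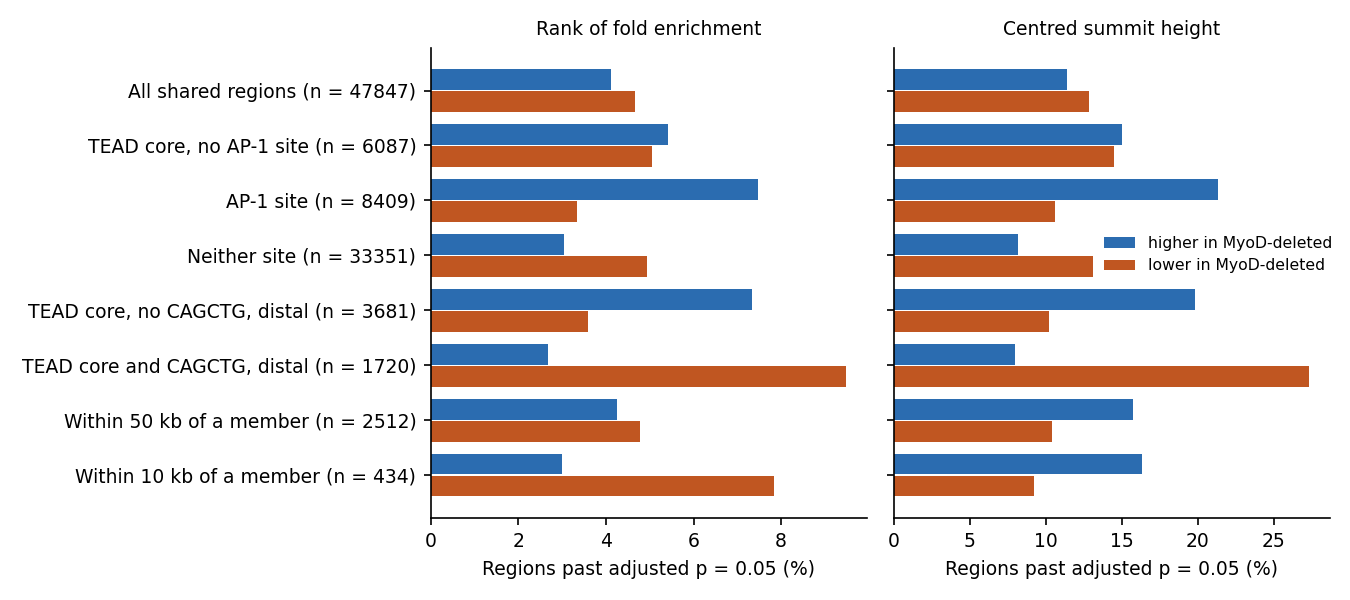
Percent of shared regions past an adjusted p of 0.05 (limma), higher (blue) or lower (orange) in MyoDΔ libraries, by rank of fold enrichment (left) and by centred summit height (right), for regions grouped by site or by distance to a member. Regions with a TEAD core only are nearly balanced when all 6 libraries are used (5.42% and 5.06% by rank), those without CAGCTG lean to higher and those with CAGCTG to lower, and regions within 10 kb of a member lean in opposite directions by the 2 measures.

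Shared regions near members gave no common direction. Of 2512 within 50 kb of a member, 107 ranked higher (4.26%) and 120 lower (4.78%), near the background of 4.12% and 4.67%, while by centred height 395 were higher (15.7%, against 11.4%) and 262 lower (10.4%, against 12.8%). The 434 within 10 kb split into 13 higher and 34 lower by rank but 71 higher and 40 lower by centred height, so the direction turned with the measure. The local background of those 434 was higher in MyoDΔ libraries by a median of 0.18 on the log2 scale relative to the smallest background of each library, compared with 0.04 over all shared regions, and its part in the rank result was not tested. Leaving out 1 library moved the counts within 50 kb to between 32 and 135 higher and between 39 and 101 lower, with the fewest without MyoDΔ replicate 2. Shared regions within 50 kb of the other gained regions gave 463 higher and 406 lower of 9650 by rank, and by centred height 1557 higher (16.1%) and 984 lower (10.2%), the same direction as near members.

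The share of all called peaks with a TEAD core only, counted per library, was 13.5%, 12.8% and 12.5% in vector and 13.7%, 14.2% and 13.7% in MyoDΔ replicates 1, 2 and 3. The groups did not overlap, at 12.9 ± 0.54% and 13.9 ± 0.311% (SD, n = 3), a difference of 0.934 percentage points (two-sided exact permutation test over 20 assignments, p = 0.1, the smallest that 3 libraries against 3 allow). Members are part of these counts and by the rule are called only in MyoDΔ libraries. They raise the MyoDΔ share by selection, so neither the lack of overlap nor this p is independent of the rule. Without peaks in gained or lost regions, a comparison added after the data were seen, the vector libraries gave 13.5%, 12.8% and 12.4% and the MyoDΔ libraries 13.3%, 13.9% and 13.4%, and the groups overlapped through vector replicate 1 (difference 0.64 points, two-sided exact permutation test, n = 3 per group, p = 0.3).

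The genes of the factors themselves showed no called change at their 5′ ends, with WWTR1 apart. Regions at the 5′ ends of TEAD1, TEAD2, TEAD3, TEAD4 and YAP1 were called in all 6 libraries, with adjusted p values between 0.511 and 0.951 by rank and between 0.309 and 0.986 by centred height (limma). TEAD1 ranked highest, with percentiles of 89.0 to 93.7 in vector and 92.1 to 96.0 in MyoDΔ libraries. WWTR1 differed from the others in that its region, a member, was uncalled in all vector libraries, as the rule requires. That region was weak, at 16, 12 and 16 fragments in MyoDΔ replicates 1, 2 and 3, where the smallest called peak had 8. In vector libraries it may lie just under the threshold. Only 1 annotated 5′ end per gene was examined. Of 121 shared regions nearest to the Hippo list 4 ranked higher and 8 lower, and of 202 nearest to YAP/TEAD target genes 12 ranked higher and 6 lower, against 4.12% and 4.67% of all shared regions. For the other lists the counts were 5 and 3 of 127 for mesenchymal transcription factors, 9 and 7 of 207 for matrix and adhesion, 1 and 10 of 110 for the actin cytoskeleton, 4 and 2 of 92 for AP-1 subunits, 3 and 6 of 127 for muscle genes, 3 and 10 of 148 for growth factor signalling and 9 and 4 of 114 for the guide library.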

How the data were processed

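ATAC-seq peaks of 3 vector and 3 MyoDΔ libraries of RH30 cells were used. The authors used Rsubread for alignment against hg38, GenomicAlignments to select properly paired reads and MACS2 for peak calling in each library, without pooling. Settings are not given in the sources used here, and neither is whether the exclusion list named in the methods was applied first. Fold enrichment, as deposited, is the ratio between the summit and the local background. The deposited −log10 p and −log10 q belong to the summit, the deposited score is derived from −log10 q and was not used, and no value is normalized between libraries. Read totals are not in the lists, so depth and counting error per value are unknown.

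Peaks on chromosomes 1 to 22 and X were merged where they overlapped, and the peak with the highest fold enrichment gave the summit. The pileup was recovered as the whole number that gives both the fold enrichment and the −log10 p under the Poisson model of MACS2. Height is log2 of pileup over the smallest background of the library. Percentiles are within the library. Shared regions were compared by inverse-normal rank in limma 3.58.1, using lmFit, then eBayes (trend = TRUE), no block, and Benjamini-Hochberg adjustment over 47847 regions. Genes came from GENCODE version 44 and sequences from hg38, with positions counted from 1. The members, gene lists, tests and alternatives were chosen with earlier results of these data known. Named were the 10 members of highest mean percentile, up to 10 within 2 kb of a 5′ end, up to 20 nearest to a listed gene, up to 5 with the most cores, those with a direct repeat, genes with 3 or more members and members at the edges of the rule. One gene that this rule names is not reported here. Because the genome was given without repeat masking, the planned exclusion of members mostly made of repeats was not run.

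Steps were tested on simulated data. When data for the 47847 regions were drawn with the mean and spread of each region in the MyoDΔ and vector comparison, limma called 73 of 100 regions shifted by 1.5 inverse-normal units and 34 of 100 shifted by 1.0, with 4 false calls. Software was R 4.3.3 and Python 3.11.15 (scipy 1.17.1, matplotlib 3.10.9, pandas 2.3.3, numpy 2.4.6).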

Additional observations from a re-analysis of the deposited data

How the results depend on the processing

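The deposited lists hold called peaks without read totals, so a region uncalled in a library may lie just under its threshold and depth limits every call. The number of members was 569 with an equal number of peaks per library and 592 with a 50 bp window. When 1 library was left out, which loosens the rule, the number of members ran from 979 to 1567, highest without vector replicate 1. Their share of gained regions was 20.1% with equal peaks, 12.3% with a 50 bp and 26.2% with a 200 bp window, and 17.3% to 18.7% with 1 library left out. For shared regions with a TEAD core only, 709 were higher and 760 lower by rank of −log10 p, 912 and 881 by centred height, and 1717 and 556 by height without centring. The number lower was 178 with the 50 bp and 503 with the 200 bp window. With 1 library left out, 97 to 415 were higher and 117 to 255 lower. For shared regions near members, 292 were higher and 235 lower by rank of −log10 p, 395 and 262 by centred height, and 762 higher without centring. They were 64 and 60 with equal peaks, 13 and 34 within 10 kb, and 389 and 384 within 200 kb. With 1 library left out, 32 to 135 were higher and 39 to 101 lower. With the replicate block, 240 and 222 regions with a TEAD core only and 79 and 74 regions near members were higher and lower. Deviations of same-numbered libraries correlated at −0.04, −0.10 and 0.04, so the numbers do not pair the libraries. The peak-share difference and the rank difference of members kept their direction under the alternatives run. The counts without peaks in gained or lost regions and for distal regions alone were chosen after seeing the data. The planned count without members mostly made of repeats was not run, since the genome used carries no repeat masking.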
